A study of Pinctada fucata with 15 samples.

Results

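The transcripts described here were the 200 of 58583 unigene probes of a *Pinctada fucata* array whose signal stood highest at the trochophore and D-shaped stages over fertilized eggs, umbonal larvae and juveniles. A unigene is an assembled transcript, and each probe is named here by its array identifier and its unigene. For each probe, the 3 pools of a stage were averaged on the deposited log2 values. The score was the lower of the trochophore and D-shaped means minus the highest of the other 3 stage means. Only the 34004 probes that the scanner software marked as well above background in every spot of the 6 trochophore and D-shaped arrays were ranked, and the 200 highest scores were kept. Of the ranked probes, 5684 scored above 0 and 932 scored above 1. The members were thus chosen by their measured stage means, and their height over eggs, umbonal larvae and juveniles is given as a description with no test.

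*P. fucata* is the pearl oyster used in bivalve shell studies. The study profiled pools of fertilized eggs (0 hours), trochophore larvae (17 hours), D-shaped larvae (48 hours), umbonal larvae (14 days) and juveniles (35 days), with 3 pools and 3 one-colour Agilent arrays per stage. All pools came from normal culture with no treatment, after gametes of adult males and females were mixed, and the larvae were fed algae. A pool holds whole animals of many cell types, so a change in the share of a cell type and a change in its RNA cannot be told apart. The probes were designed from the transcriptome of adult mantle, the tissue that secretes the shell, so a larval transcript that the adult mantle lacks may have no probe here.

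The trochophore is the first swimming larva of bivalves. It carries a ciliated band for locomotion, and its shell gland lays down the organic beginning of the shell. It then becomes the D-shaped veliger, which is enclosed by a straight-hinged first larval shell and swims and feeds with a ciliated velum. The umbonal larva enlarges a second larval shell, and the juvenile has settled and secretes the nacreous and prismatic layers of the adult.

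The stage means of 10 probes named by the study were looked at first. The study reported their stage differences from these same arrays, so they are no independent check of the stage labels. The shell matrix probes for shematrin-4, Pif and pearlin, which are proteins of the adult shell layers, had mean log2 signals of 15.32, 13.21 and 14.50 in juveniles, against 3.76, 2.79 and 4.31 at the umbonal stage. The 4 chitin synthase probes, for the enzyme that makes the chitin of the shell's organic framework, ranged from 5.28 to 8.17 at the trochophore stage and from 10.90 to 14.59 at the D-shaped stage. The matrix probes of prisilkin-39 and prismalin-14 did not meet the check, which asked for a dim signal before the juvenile stage. All 3 arrays of each earlier stage saw prisilkin-39 above background, and all 3 at the D-shaped and umbonal stages saw prismalin-14.

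One array stood apart. In fertilized egg pool 1, 18147 of the probes, 30.8%, shared a single value in the scanner file, which became 4.36 after normalization, and 108 members were at that value. Whether the scanner software set this value in place of a measurement is not given in the sources used here, so a 4.36 in egg pool 1 is not read as a level, although it enters the egg means, SDs and fits. Egg arrays also had the fewest spots well above background, 53.3% to 65.6%, against 61.8% to 70.3% for trochophores, 70.4% to 86.1% for D-shaped larvae, 80.9% to 91.3% for umbonal larvae and 89.3% to 91.2% for juveniles. The lowest signal at which any probe was well above background was correspondingly higher on egg arrays, between 6.06 and 7.56, than on juvenile arrays, between 3.66 and 3.85. With egg pool 1 left out of the score, 196 of the 200 members were chosen again. The arrays lay on 2 slides. Eggs, trochophores and D-shaped pools 1 and 2 were on one slide, and D-shaped pool 3, umbonal larvae and juveniles were on the other. Arrays of one stage correlated at 0.966 to 0.994 (r across probes, which are not independent replicates).

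The scores of the members ran from 1.71 to 5.23 with a median of 2.03 on the log2 scale. Scores above 3 were held by 15 members, and scores above 5 by 2. All values from here on are quantile-normalized log2 signals unless another scale is named. On that scale the lowest of the 6 trochophore and D-shaped pools was above the highest of the other 9 pools in 197 members, a separation that the score selects and that 7.98% of the ranked probes showed. The 3 exceptions, CUST_22064, CUST_25084 and CUST_35708, were singled out after their values were seen, and in each an egg value overlapped a D-shaped value. In CUST_25084 the highest of the 9 was egg pool 2 at 6.69 and the lowest of the 6 was D-shaped pool 3 at 6.27. No egg pool of these 3 members was well above background.

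**Figure D1:**
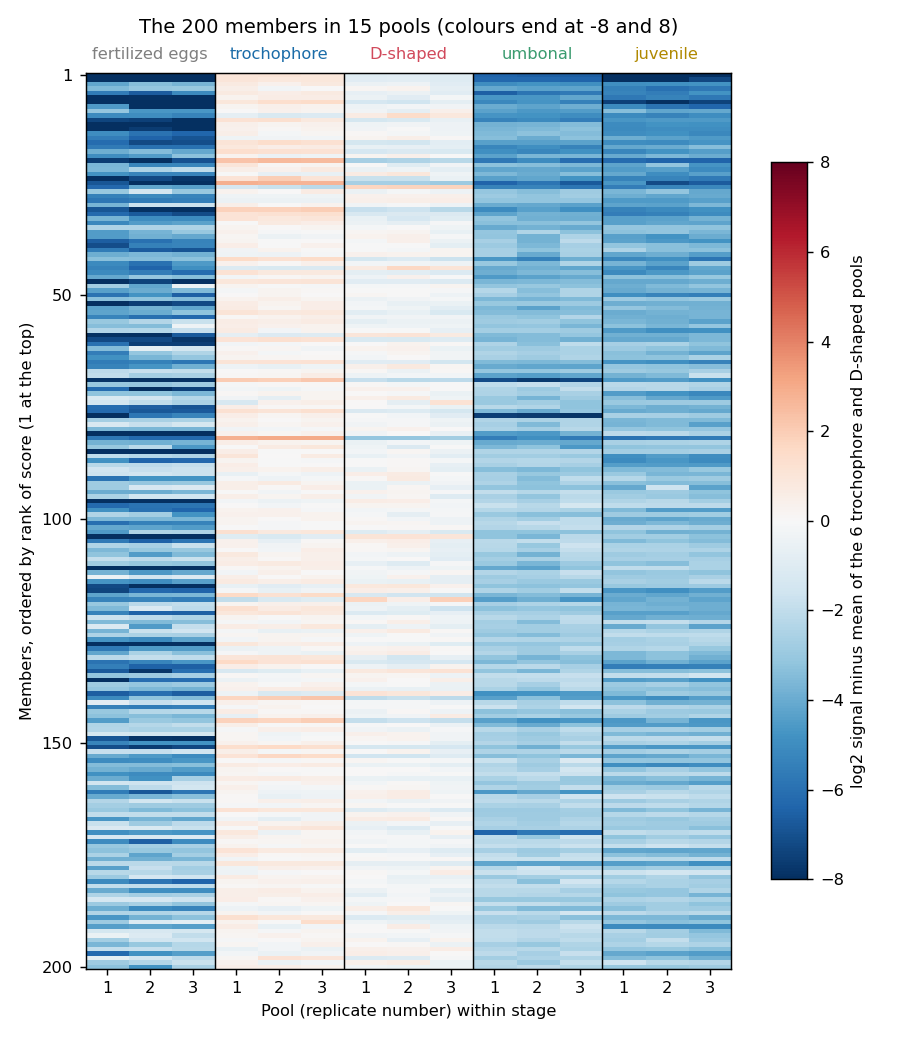
Heat map of the 200 members (rows, by rank of score) in the 15 pools (columns, 3 per stage). Colour is the quantile-normalized log2 signal minus the member's mean over the 6 trochophore and D-shaped pools, and the colour scale ends at -8 and 8. In 197 members all 6 middle columns lie above all 9 outer columns.

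The highest score belonged to CUST_29994 (Unigene30015), which the sources used here do not annotate. It was at 14.87, 14.98 and 14.84 in the 3 trochophore pools and at 12.93, 13.02 and 12.88 in the D-shaped pools. It was at 7.49, 7.38 and 7.36 in umbonal larvae and at 5.07, 5.35 and 5.88 in juveniles, and its egg values of 4.36, 4.12 and 3.97 were not well above background. The stages did not overlap, and the order fell from trochophore through D-shaped and umbonal larvae to juveniles. The trochophore mean was at least 283-fold above eggs and 179-fold above umbonal larvae. Here and below, "at least" marks a fold whose dimmer stage had no array well above background: each array of that stage was then raised, where the probe lay below it, to the weakest signal that the array still marked as well above background.

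CUST_36759 (Unigene36782), ranked second, had the same shape. Its trochophore pools were at 15.96, 15.83 and 15.89 and its D-shaped pools at 14.05, 14.14 and 13.96. Umbonal pools were at 8.67, 8.68 and 8.54 and juvenile pools at 6.92, 6.61 and 7.67, with eggs again not well above background. The trochophore mean was at least 565-fold above eggs and 154-fold above umbonal larvae.

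After these 2, the scores fell to 3.92 and below. CUST_7466 (Unigene7471), the third, was the one member that was well above background on none of the 9 other arrays. It was at 9.19, 8.82 and 9.29 in trochophores and at 8.03, 8.09 and 7.60 in D-shaped larvae, while umbonal pools lay between 3.52 and 3.72 and juvenile pools between 3.58 and 3.70. The D-shaped mean was at least 13.9-fold above umbonal larvae and at least 17.8-fold above juveniles.

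CUST_44756 (Unigene44790), the fourth, was one of 7 members with 2 spots per array. Its trochophore pools, at 11.05, 10.40 and 10.65, overlapped its D-shaped pools, at 10.74, 10.89 and 9.88. Egg values of 7.07, 7.48 and 7.55 were well above background on 2 arrays, so its signal was already seen before the larval stages.

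CUST_1609 (Unigene1610) and CUST_40756 (Unigene40784) were well above background in no umbonal pool. CUST_1609 lay between 10.49 and 10.69 in trochophores and between 9.06 and 9.50 in D-shaped larvae, and was still well above background on all 3 juvenile arrays at 4.44 to 5.14. CUST_40756 lay between 7.48 and 7.81 in trochophores and between 6.74 and 7.87 in D-shaped larvae, and these ranges overlapped. Its trochophore mean was only at least 1.87-fold above eggs, because the limit set by the egg arrays was high.

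The other 4 of the 10 highest scores were CUST_32564 (Unigene32585), CUST_15626 (Unigene15634), CUST_41698 (Unigene41727) and CUST_25879 (Unigene25896), scoring 3.77, 3.62, 3.49 and 3.38. In CUST_15626 the trochophore pools were at 14.18, 14.63 and 14.74 and the D-shaped pools at 11.93, 11.69 and 12.46. In CUST_41698 egg pool 1 was at 7.46 and egg pools 2 and 3 at 3.73 and 3.66, so the egg pools differed from one another by more than the trochophore pools, at 12.25 to 12.40, differed from the D-shaped pools, at 11.62 to 11.77. CUST_25879 was the only one of the 10 whose D-shaped pools, at 10.06 to 10.86, all lay above its trochophore pools, at 8.15 to 8.68.

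At the lower edge of the choice the scores were nearly continuous. CUST_31971, ranked 199, scored 1.71, and CUST_22429, ranked 200, scored 1.706. The first 2 probes left out, CUST_12713 and CUST_48490, scored 1.705 and 1.703. CUST_12713 was at 10.16 to 10.30 in eggs and at 11.51 to 12.26 in the 6 larval pools, so it differed from CUST_22429, which was not well above background in any egg pool.

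The scale on which the score was computed changed part of the list. A 75th-percentile shift of the scanner signals chose the same 200 probes. Quantile normalization kept 159 of them, spike-in scaling 134, and a background correction before quantile normalization 136.

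Where the members stood in the 3 lower stages differed from stage to stage. In eggs, 113 members were well above background on none of the 3 arrays, 19 on 1, 18 on 2 and 50 on all 3. In umbonal larvae 173 members were well above background on all 3 arrays and 3 on none. In juveniles 182 were well above background on all 3 arrays and 5 on none. Most members thus remained measurable at the later stages at a lower signal, and 50 were well above background on all 15 arrays. Among all ranked probes, 81.1% were well above background on all 3 egg arrays, 99.3% on all 3 umbonal arrays and 99.5% on all 3 juvenile arrays, against 25.0%, 86.5% and 91.0% of the members. The score favours probes that are dim in those stages, so this difference is a description.

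**Figure D2:**
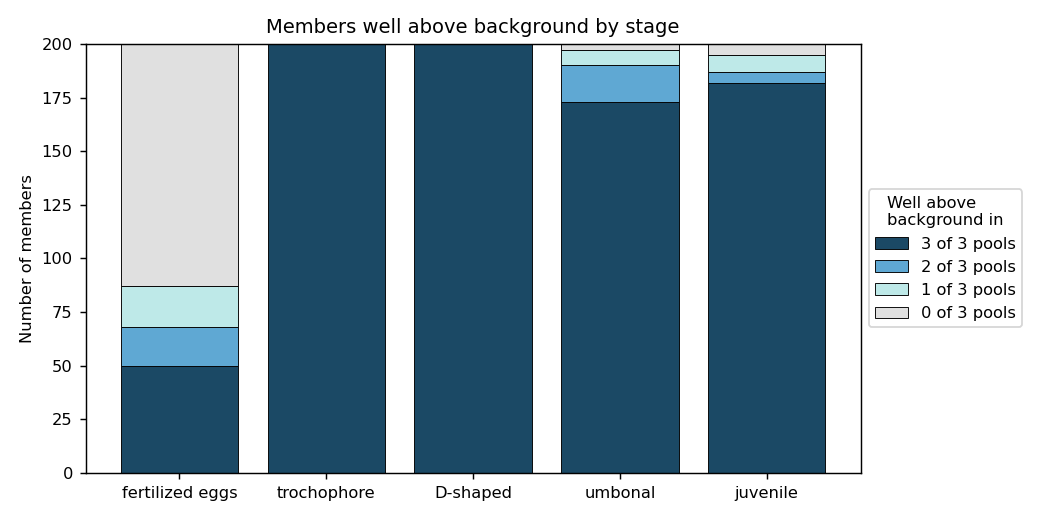
Number of members (y axis) that were well above background in 0, 1, 2 or 3 of the 3 pools of each stage (x axis, stacked bars). Eggs have 113 members at 0 pools, umbonal larvae 3 and juveniles 5, and all 200 are at 3 pools at the trochophore and D-shaped stages by the rule.

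The fold between the larval peak and the later stages was taken where the later stage was well above background on at least 1 array. Trochophores stood 2.88-fold to 673-fold above umbonal larvae, with a median of 8.01-fold over 197 members, and 81 of them exceeded 10-fold. Trochophores stood 2.68-fold to 706-fold above juveniles, with a median of 12.6-fold over 195 members. D-shaped larvae stood 3.37-fold to 157-fold above umbonal larvae, with a median of 6.07-fold over 197 members, and 44 of them exceeded 10-fold. D-shaped larvae stood 3.24-fold to 182-fold above juveniles, with a median of 8.16-fold over 195 members. For the 50 members measured on every egg array, trochophores stood 2.47-fold to 264-fold above eggs, with a median of 9.62-fold. For the 113 members measured on no egg array, that fold was a lower bound in each, and the bound exceeded 100 in 18.

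The order of the stage means was read on both scales without eggs, whose place could not be measured in the 113 members that no egg array marked as well above background. Over the 168 members measured on all umbonal and juvenile arrays, trochophore, D-shaped, umbonal, juvenile was the most frequent order, with 87 members on the deposited scale and 97 on the quantile scale. The trochophore mean was above the D-shaped mean in 142 of the 200 members on the deposited scale and in 149 on the quantile scale. Under spike-in scaling it was above the D-shaped mean in only 82 members and below it in 118. Which of these stages stood higher in most members thus depended on the scale. The orders of the stage means were not counted under spike-in scaling. The highest of the 3 low stages was the umbonal stage in 109 members, juveniles in 67 and eggs in 24 on the deposited scale. On the quantile scale these counts were 102, 38 and 60. Both sets of counts include the 113 members whose egg place could not be measured, so the place of eggs is not read from them.

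The comparison of D-shaped with trochophore larvae asked whether the members stayed level or moved between the 2 swimming larvae. The score does not fix its direction, and every member was well above background on all 6 arrays, so no filter on dim probes acted on the members. At the D-shaped stage 49 members were called lower and 9 higher by limma (Benjamini-Hochberg adjusted p below 0.05 over all 42202 probes tested and at least 2-fold), and 142 were not called. Over all probes tested, 16.6% were called lower and 16.9% higher, and the members' shares were 24.5% and 4.5%. Among the ranked probes alone, which like the members were well above background on all 6 arrays, 17.0% were called lower and 10.6% higher. Because the score takes the lower of the 2 stage means, it works against large changes between them. The median log2 change over the members was -0.41, against -0.16 over all probes tested and -0.26 over the ranked probes.

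Spike-in scaling moved the median of all probes tested to 0.42 and that of the members to 0.13. Under it 36 members were called lower and 29 higher, against 5.85% lower and 28.4% higher over all probes tested. The members' median was below that of all probes tested under both scalings. The 9 higher calls were kept under spike-in scaling, and 36 of the 49 lower calls were kept. On the first slide alone, which holds D-shaped pools 1 and 2, 48 were called lower and 11 higher, against 17.0% and 16.3% of all probes tested.

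Every trochophore pool lay above every D-shaped pool in 99 members and below every D-shaped pool in 28. In the ranked probes these 2 patterns took 38.8% and 20.5%.

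**Figure D3:**
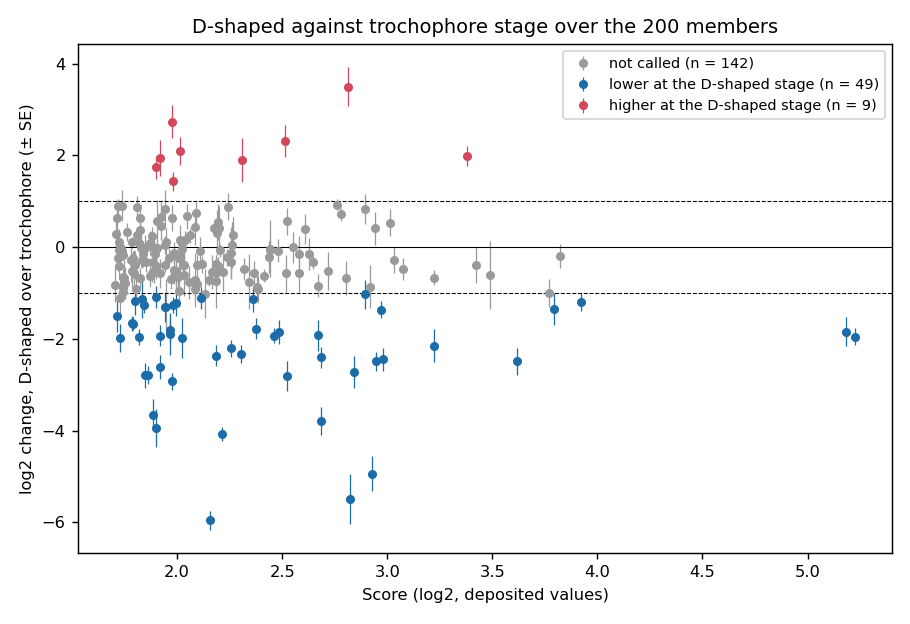
log2 change of the D-shaped over the trochophore stage (y axis, with its standard error from limma) against the score (x axis, log2 on the deposited values) for each of the 200 members. Dashed lines mark 2-fold, and 49 members are called lower, 9 higher and 142 not called.

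The largest fall was in CUST_24604 (Unigene24620), listed by the study under progesterone-mediated oocyte maturation, a pathway map for the hormone-driven resumption of meiosis in frog oocytes. It was at 12.95, 13.10 and 13.15 in trochophores and at 7.03, 7.01 and 7.31 in D-shaped larvae. The log2 change was -5.96 ± 0.20 (SE), a 62.1-fold fall, with an adjusted p of 1.5e-10 from limma. The umbonal values were 4.57, 5.16 and 4.46, of which 2 were well above background, and the juvenile values were 4.18 to 4.47. The score places both of these stages below D-shaped larvae.

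CUST_6296 (Unigene6299) fell by 5.49 ± 0.55 on the log2 scale, from between 13.92 and 14.05 to between 8.32 and 8.59 (limma adjusted p of 2.2e-06). CUST_4027 (Unigene4029) fell by 4.94 ± 0.38, from between 14.23 and 14.54 to between 9.28 and 9.72 (limma adjusted p of 1.7e-07). These were falls of 44.8-fold and 30.7-fold, and neither probe was well above background in any egg pool. Their trochophore means stood at least 148-fold and at least 203-fold above eggs.

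CUST_23716 (Unigene23731) had a different later course. It fell from 14.28, 14.12 and 14.36 in trochophores to 10.35, 10.08 and 10.13 in D-shaped larvae, a log2 change of -4.07 ± 0.16 (limma adjusted p of 3.5e-10). It was lowest among the later stages in umbonal larvae, at 5.08, 4.58 and 4.91, and was at 7.70, 7.74 and 7.38 in juveniles. Juveniles and umbonal larvae did not overlap. CUST_5997 (Unigene5999), the fifth largest fall, went from between 11.19 and 11.66 to between 7.34 and 7.71. Over all 49 members called lower, the log2 change ran from -1.03 to -5.96 with a median of -1.95.

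**Figure D4:**
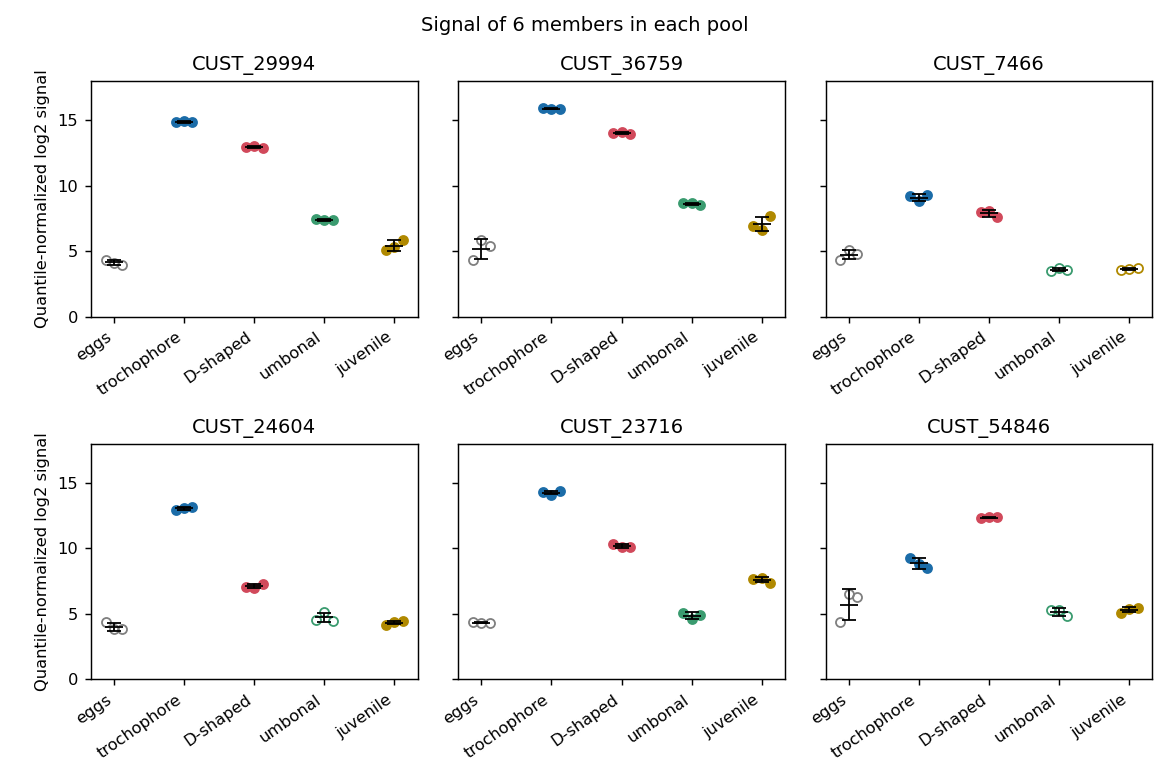
Quantile-normalized log2 signal (y axis) of 6 members in each pool, by stage (x axis). Points are pools, open where the probe was not well above background on all 3 arrays of the stage, and bars give the mean and SD (n = 3). CUST_24604 and CUST_23716 fall steeply from the trochophore to the D-shaped stage, and CUST_54846 rises.

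The largest rise was in CUST_54846 (Unigene54886), which has no annotation in the sources used here. It was at 9.28, 8.85 and 8.48 in trochophores and at 12.35, 12.37 and 12.37 in D-shaped larvae. The log2 change was 3.50 ± 0.43 (SE), an 11.3-fold rise, with an adjusted p of 1.4e-05 from limma. It then stood between 4.81 and 5.31 in umbonal larvae, 149.9-fold below the D-shaped mean, a difference whose direction the score selects.

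CUST_48489 (Unigene48526) rose by 2.74 ± 0.35 on the log2 scale, from between 7.72 and 8.74 to between 10.22 and 11.58. CUST_21403 (Unigene21417) rose by 2.31 ± 0.36, from between 8.50 and 8.64 to between 10.48 and 11.41. CUST_25330 (Unigene25347) rose by 2.09 ± 0.30, from between 12.62 and 12.92 to between 14.83 and 14.96. CUST_25879, among the 10 highest scores, rose by 1.99 ± 0.22. Their adjusted p-values from limma were 2.1e-05, 0.00011, 5.6e-05 and 4.9e-06. In none of the 9 members called higher was any egg array well above background. Of the 49 called lower, 32 had no egg array well above background, and of the 142 not called, 72.

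CUST_25330 was also bright at the umbonal and juvenile stages. Its umbonal pools, at 10.62, 10.18 and 11.68, and its juvenile pools, at 11.05, 11.05 and 10.59, overlapped, and its egg pools were not well above background. The D-shaped mean was 16.8-fold above umbonal larvae and 16.0-fold above juveniles.

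Many members stayed level. The log2 change between the 2 stages was under 0.5 in size in 78 members. The 4 nearest to 0 were CUST_4254, CUST_46136, CUST_15689 and CUST_48860, with log2 changes of -0.0024 ± 0.34, -0.016 ± 0.20, -0.017 ± 0.27 and -0.018 ± 0.22. CUST_4254 (Unigene4256) was at 9.69, 10.21 and 9.95 in trochophores and at 9.90, 9.77 and 10.17 in D-shaped larvae, and its pools overlapped fully. CUST_46136 (Unigene46170) was well above background in eggs, at 10.29 to 10.82, and reached 13.26 to 13.58 in trochophores.

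The D-shaped pools of the 2 slides differed somewhat. Pool 3, on the second slide, was below both pools of the first slide in 122 members and above both in 50. Among the ranked probes it was below both in 50.6% and above both in 36.1%, against 61.0% and 25.0% of the members. The median of pool 3 minus the mean of the other 2 was -0.24 over the members and -0.092 over the ranked probes, and it exceeded 1 in size in 6 members. The part of the slide in this difference was not tested. With slide as a block, 50 members were called lower and 13 higher, against 17.9% and 17.2% of all probes tested. Only the D-shaped stage lay on both slides, so the block is estimated from its pools alone. The members' median change was -0.345 with the block and -0.345 on the first slide alone, so these 2 are not separate checks.

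**Figure D5:**
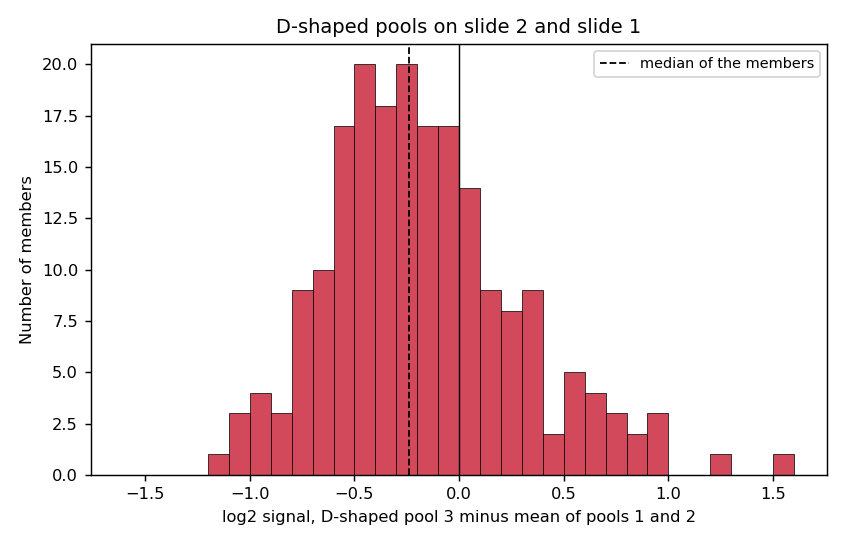
Histogram of the members (y axis, number) by the log2 signal of D-shaped pool 3, on the second slide, minus the mean of D-shaped pools 1 and 2, on the first slide (x axis). The dashed line is the median, -0.24, and 122 members lie below both pools of the first slide.

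The spread between pools was small where the members were bright. The median SD over 3 pools was 0.18 for trochophores and 0.25 for D-shaped larvae over the members, against 0.19 and 0.25 over the ranked probes. In eggs it was 0.45 over the members and 0.18 over the ranked probes. In the 7 members with 2 spots per array, the 2 spots of one array differed by a median of 0.082 on the log2 scale in the 42 pairs of the 6 larval arrays, and by at most 1.14. Nothing in the sources ties the 3 pools of a stage to separate spawnings, so the p-values measure the spread between these pools. The fit shares a single estimate of spread over all 5 stages, so each SE and p-value also carries the egg, umbonal and juvenile spread. In CUST_6296 the SD was 0.072 in trochophores and 0.14 in D-shaped larvae. It was 0.91 in eggs and 1.31 in juveniles, and the SE of its D-shaped change was 0.55. Fitted on the 6 trochophore and D-shaped arrays alone, 50 members were called lower and 9 higher, against 15.9% and 16.5% of all probes tested.

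Juveniles were compared with umbonal larvae to see how the members ran after their larval peak. Of 187 members tested, 168 passed the filter on dim probes through both stages. The median log2 change over the members tested was -0.42, against -0.10 over all probes tested. limma called 46 members lower and 12 higher in juveniles, and over all 52432 probes tested 15.9% were called lower and 13.4% higher. Among the ranked probes these shares were 16.0% and 7.37%, against 24.6% and 6.42% of the members tested. With a 75th-percentile shift, 31 members were called lower and 16 higher, and over all probes tested the shares under that shift were 11.3% lower and 16.2% higher. Both stages lay on the second slide, so the slide did not enter this comparison.

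Among the 10 highest scores, CUST_29994, CUST_36759, CUST_44756, CUST_32564 and CUST_15626 were lower again in juveniles. In CUST_15626 umbonal pools at 8.10, 8.54 and 7.86 lay above juvenile pools at 5.80, 5.16 and 5.88, a log2 change of -2.55 ± 0.29 (limma adjusted p of 9e-06). In CUST_29994 the change was -1.98 ± 0.18, with an adjusted p of 1.7e-06 from limma. Of the members that had fallen at the D-shaped stage, 45 were tested here and 12 were called lower, and of those not called at the D-shaped stage, 133 were tested and 34 were called lower.

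In juveniles 12 members, 6.42% of those tested, were called higher than in umbonal larvae. The shares were 7.37% of the ranked probes and 13.4% of all probes tested. The 2 largest rises, CUST_49387 (Unigene49424) and CUST_32254, were singled out after their values were seen. CUST_49387 was at 5.21, 5.08 and 4.91 in umbonal larvae and at 10.14, 10.06 and 9.91 in juveniles, a log2 change of 4.97 ± 0.57 (limma adjusted p of 1.2e-05). It was at 12.90 to 13.28 in trochophores and at 11.85 to 12.72 in D-shaped larvae. The score sets both of these stages above juveniles, so the lower juvenile level is not read as a result. The study lists its probe among uncharacterized transcripts that were higher in juveniles, with no gene name. CUST_32254 was at 6.32, 7.02 and 6.65 in umbonal larvae and at 10.75, 10.57 and 10.67 in juveniles, a log2 change of 4.0 ± 0.30 (limma adjusted p of 2.3e-07). CUST_23716, with the fourth largest fall at the D-shaped stage, was 6.72-fold higher in juveniles than in umbonal larvae (limma adjusted p of 1.8e-08).

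The comparisons of umbonal larvae and juveniles with eggs asked whether the members settled at their egg level once the larval peak had passed. The 2 comparisons share the egg arrays. All 173 members tested in umbonal larvae passed the filter through the umbonal stage, and only 50 of them were also well above background on every egg array. limma called 88 higher and 20 lower, and over all 48233 probes tested 33.1% were called higher and 31.4% lower. In 67 of the 88 no egg array was well above background, so nothing is read from those calls. Counts over all 173 members share this limit on every scale. In the 50 members measured on every array of both stages, 15 were called higher and 8 lower, and over all probes measured in that way 18.5% were called higher and 42.2% lower. A 75th-percentile shift, which moved the median of all probes tested from 0.044 to 0.31, gave 115 higher and 2 lower, against 39.7% and 29.1% of all probes tested. Spike-in scaling, which moved it to 1.73, gave 158 higher and 0 lower, against 61.2% and 12.4% of all probes tested. Eggs and umbonal larvae lay on different slides.

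In juveniles 182 members were tested, all through the juvenile stage. limma called 75 higher and 29 lower than eggs, and over all 52203 probes tested 32.4% were called higher and 32.8% lower. In 53 of the 75 no egg array was well above background, so nothing is read from those calls. Counts over all 182 members share this limit on every scale. In the 50 members measured on every array of both stages, 18 were called higher and 11 lower, and over all probes measured in that way 17.8% were called higher and 46.1% lower. Under a 75th-percentile shift, with the median of all probes tested at 0.51, the counts were 121 higher and 8 lower, against 42.3% and 28.3% of all probes tested. Under spike-in scaling, with that median at 1.80, they were 163 higher and 0 lower, against 61.0% and 13.6%.

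The umbonal signal of some members is given against eggs as a description, and no call is read from it. No egg array was well above background for CUST_25330 or CUST_46307. Their umbonal means were at least 16.8-fold and at least 17.6-fold above eggs, bounds set by the limit of the egg arrays. The slides of the 2 stages differed. CUST_51482, singled out after its values were seen, had the largest trochophore rise among the members measured on every egg array. It was at 8.71, 7.64 and 7.81 in eggs and at 15.94, 16.26 and 16.10 in trochophores, a 264-fold difference, and was still at 10.56 to 10.61 in umbonal larvae.

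Few members could be given a function. None of the 200 was named with a gene by the study's text or its gene lists. In the part of the study's functional term lists that was held here, 15 members, 7.5%, carried at least 1 term, against 6.01% of the ranked probes. These lists are partial and were drawn up by the study from probes that changed in these same samples, so they are no independent evidence of a direction. The members with a term were singled out after their values were seen. In the D/T comparison, 4 of the 15 were called lower, 0 higher and 11 were not called.

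CUST_22429 (Unigene22444), the last member, was listed under histone acetyltransferase complex and SAGA-type complex, which open chromatin at promoters by acetylating histones. It was at 8.15, 8.09 and 7.90 in trochophores and at 7.35, 7.24 and 7.11 in D-shaped larvae, with umbonal pools at 5.20 to 5.54. CUST_9291 (Unigene9298) was listed under transcription factor complex and was at 10.86 to 11.58 in trochophores and 10.41 to 11.23 in D-shaped larvae, which overlapped. CUST_19240 (Unigene19250), listed under inositol phosphate metabolism and phosphatidylinositol signaling, the route by which cell surface receptors release second messengers, was at 8.73 to 9.17 and 8.22 to 9.04 in the 2 stages, which overlapped too.

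CUST_12478 (Unigene12486) was the one member on a list fixed for this work, that of the cell cycle and DNA replication. It carried 8 terms, among them cell cycle and ubiquitin mediated proteolysis, and shared 5 of them, on amino acid metabolism and the peroxisome, with CUST_18692 (Unigene18702). CUST_12478 was at 11.08 to 11.61 in trochophores and 11.65 to 12.25 in D-shaped larvae and at 6.81 to 7.19 in juveniles. CUST_18692 was at 7.58 to 8.21 and 7.50 to 7.96 in the 2 larval stages. CUST_12478 was lower in juveniles than in umbonal larvae by a log2 change of -2.31 ± 0.29 (limma adjusted p of 2.3e-05).

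CUST_3084 (Unigene3085), listed under retinol, linoleic acid and caffeine metabolism and the drug metabolism of other enzymes, peaked at the D-shaped stage. It was at 13.57, 13.58 and 13.60 in trochophores and at 14.43, 14.54 and 14.57 in D-shaped larvae, and it was at 10.90 to 10.97 in umbonal larvae and at 9.50 to 9.72 in juveniles. Eggs were at 8.25 to 8.57. Its D-shaped log2 change of 0.93 ± 0.13 had a limma adjusted p of 3.5e-05 but was under 2-fold.

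CUST_26246 (Unigene26263), listed under O-glycan biosynthesis, by which sugars are attached to serine and threonine of secreted and membrane proteins, was at 11.68 to 11.82 in trochophores and 11.97 to 12.30 in D-shaped larvae. CUST_1447 (Unigene1447), listed under the Golgi apparatus and as integral to membrane, fell from between 12.61 and 12.98 to between 10.90 and 11.26 (log2 change -1.67 ± 0.14, limma adjusted p of 5.2e-07). CUST_1447 was again lower in juveniles, at 7.70 to 7.77, than in umbonal larvae, at 9.03 to 9.23.

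CUST_46307 (Unigene46341), listed under microsome and beta-alanine metabolism, and CUST_31074 (Unigene31095), listed under the systemic lupus erythematosus term, were called lower at the D-shaped stage, by log2 changes of -1.31 ± 0.32 and -1.26 ± 0.19. The limma adjusted p-values were 0.0035 and 7.2e-05. CUST_46307 ranged from 14.42 to 14.85 in trochophores and 12.95 to 13.54 in D-shaped larvae. Within the first slide alone CUST_46307 was not called, at a log2 change of -1.14. Both were under 2-fold with spike-in scaling, at -0.95 and -0.89.

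The remaining members with a term, CUST_25270 (pancreatic cancer), CUST_51592 (complement and coagulation cascades), CUST_45926 (aldosterone-regulated sodium reabsorption) and CUST_1409 (membrane), were not called at the D-shaped stage. Names of human diseases and organs among these terms come from the reference pathway maps and describe no oyster tissue. CUST_51592 was at 9.11 to 9.40 in trochophores and 9.89 to 10.49 in D-shaped larvae, and was at 5.50 to 5.68 in umbonal larvae.

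The 14 lists fixed for this work held 610 probes, of which 338 were among the ranked probes and 1 was a member, while members made up 0.588% of all ranked probes. With so small a share, nothing is read from the 13 lists that held no member, which cover cilia, chitin precursors, the extracellular matrix, muscle, synapse and axon, lysosome, ribosome, calcium and developmental signaling, tyrosine and xenobiotic metabolism and biomineralization. Of the 36 cilia probes tested at D/T, which include axonemal dynein, the motor of moving cilia, 2 were called higher and 1 lower, and the median log2 change was -0.055, against -0.16 over all probes tested. With a 75th-percentile shift that median was 0.048, and with spike-in scaling it was 0.60. Of the 47 cell cycle and DNA replication probes tested, 25 were called lower and 6 higher, with a median of -1.14. Over all probes tested, 16.6% were called lower and 16.9% higher. With spike-in scaling 9 were called lower and 9 higher, against 5.85% and 28.4% of all probes tested. The median of these probes was then -0.48, against 0.42 over all probes tested. Counts for the other lists are not given here.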

How the data were processed

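Transcript levels were measured on one-colour Agilent arrays of 15 pools, 3 at each of 5 stages. The authors deposited the intensity of each spot as written by Feature Extraction 11.5.1.1, and a table of processed log2 values per probe. The study names quantile normalization, but the deposited log2 columns had their 75th percentile between -0.021 and -0.0038 and medians from -3.45 to -2.36, so they are on a percentile-shifted scale and are not centred by gene.

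For this report, non-control, non-outlier spots were averaged per probe (58883 probes), floored at an intensity of 1, put on the log2 scale and quantile-normalized. A linear model with one mean per stage over all 15 arrays was fitted with limma 3.58.1 in R 4.3.3. A probe was tested if it was well above background in every spot on all 3 arrays of either stage compared, and a call needed at least a 2-fold change with a Benjamini-Hochberg adjusted p below 0.05 over every probe tested. No spot was saturated. With 3 arrays a stage, their number limits the precision.

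The members, the gene lists and the tests were chosen with earlier results of these data known. The named genes were the 10 highest scores, the 5 largest rises and falls at the D-shaped over the trochophore stage among called members, the 4 nearest to 0, annotated or listed members, and the probes at the lower edge. The alternatives were a 75th-percentile shift, the authors' processed values, spike-in scaling on 8 probes, normexp background correction with an offset of 50 on the median signal (the files used here gave no mean signal), other filters, an unadjusted p, the SAM statistic named by the study's methods, fewer arrays, blocks for slide and replicate number, and the 100 highest scores. The replicate numbers were checked for pairing. The code was tested on simulated data. No probe sequence or genome was used here, so no sequence is printed.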

Additional observations from a re-analysis of the deposited data

How the results depend on the processing

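Each count of called members was recomputed under the alternatives. D/T is the D-shaped over the trochophore stage, U/E umbonal larvae over eggs, J/E juveniles over eggs and J/U juveniles over umbonal larvae. Spike-in scaling gave 29 members higher at D/T, 158 at U/E and 163 at J/E, with 0 lower at U/E and 0 at J/E. Over all probes tested these shares were 28.4%, 61.2% and 61.0% higher, with 12.4% and 13.6% lower. The 75th-percentile shift and the authors' processed values both gave 2 lower at U/E and 121 higher at J/E, with 8 and 7 lower at J/E. Over all probes tested, both called 29.1% lower at U/E and 28.3% lower at J/E, with 42.33% and 42.25% higher at J/E. Normexp correction gave 5 lower at U/E, 11 at J/E and 29 at J/U, against 27.0%, 27.8% and 9.26% of all probes tested. Requiring all 6 arrays to be well above background, which tests 50 members, gave 15 higher and 8 lower at U/E and 18 higher and 11 lower at J/E. Over all probes tested in that way the shares were 18.5% and 42.2% at U/E and 17.8% and 46.1% at J/E. The SAM statistic gave 5 lower at U/E and 17 at J/E, against 23.6% and 24.6% of all probes tested. Slide as a block, whose term rests on the D-shaped pools alone, gave 13 lower at U/E, against 29.5% of all probes tested. Over all probes tested, the main setting called 16.9% higher and 16.6% lower at D/T, and 33.1% and 31.4% at U/E. It called 32.4% and 32.8% at J/E, and 13.4% and 15.9% at J/U. Among the 100 highest scores, which are fewer members by construction, 4 were higher and 27 lower at D/T, 48 and 9 at U/E, 39 and 11 at J/E, and 7 and 29 at J/U. Otherwise the cause was not tested. Leaving out each of the 15 arrays in turn gave 9 to 13 higher and 47 to 51 lower at D/T, 88 to 94 and 18 to 25 at U/E, 74 to 79 and 24 to 35 at J/E, and 10 to 13 and 41 to 52 at J/U. Membership kept 134 of 200 probes under spike-in scaling and 136 under normexp correction.

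No pairing of the arrays by replicate number was seen, which cannot show that same-numbered pools had separate origins. Deviations from the stage means correlated at -0.20 to 0.11 between same-numbered arrays of consecutive stages. With the replicate number as a block, 9 members were called higher and 49 lower at D/T, 88 and 20 at U/E, 75 and 29 at J/E, and 12 and 46 at J/U. It changed no count.

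Of the D/T changes of 38 members named, 1007 of 1026 recomputed values stayed on the same side of the call, 6 lost the call, 13 gained it and 0 changed sign after a call. Many of these settings leave the D/T change itself unaltered, such as leaving out an egg, umbonal or juvenile array, or an unadjusted p. Some members were also named for their large D/T changes, so much of this agreement was fixed in advance.

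The egg values are limited by signal over background. In fertilized egg pool 1, 108 members share one value, and 113 members were well above background on no egg array, so the fold over eggs is a lower bound in those. Calls of higher at U/E and J/E in those 113 members are not read.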

Other observations

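The array also carried 300 probes designed from GenBank sequences, which the score did not rank. Of these, 171 were well above background on all 6 trochophore and D-shaped arrays, and 22 had a score above 0 on the 75th-percentile shift. The highest score among them was 1.705, and 0 reached the score of the last member.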
